A study of Mus musculus with 8 samples.

Results

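The miRNA content of mouse liver without toxin was described from the 3 arrays of mice that received olive oil alone, out of 8 arrays in the series. Olive oil was the vehicle of the study's fibrosis experiment and was injected into the peritoneum of male C57BL/6J mice, 8 weeks old at the start, 2 times a week for 4 weeks and then weekly for the next 4. Liver was taken at 4, 6 and 8 weeks, with 1 array at each time and no second array of a week. Week and array therefore cannot be told apart, no test was possible, and a mean ± SD over the 3 arrays spans the weeks. The labels give no allele and do not say how many mice an array stands for. All 567 mouse miRNA names on the array were described by signal, by share of the array's summed signal and by the scanner software's detection call. The signal is the background-subtracted total that the same software gives for a miRNA. It is not the plain sum of the processed spot signals, which was used as an alternative.

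miRNAs are short RNAs that guide Argonaute proteins to messenger RNAs, mostly by pairing of the seed, which comprises bases 2 to 8 from the 5′ end. miRNAs with the same seed form a family and can bind many of the same messages. In liver, hepatocytes are known for their very high content of miR-122, and blood, endothelial, stellate and biliary cells carry miRNA sets of their own. Share and rank below are those of brightness on this array: probes differ in labelling and binding, so they do not give numbers of molecules.

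The sequences of the abundant miRNAs are shown first, because a small number of names carried most of the signal of the olive oil livers. RefSeq mature sequences (GRCm38.p6) could be matched by position to 419 of the 567 names. Of the 30 names with the highest mean share, 24 were matched, and 20 of these 24 (83.3%) began with U. Beside them, 54 of the 89 matched names detected on every array (60.7%), which include the 24, began with U. Of the 320 matched names detected on no array 109 (34.1%) did. Of the 30, mmu-miR-122, mmu-miR-720, mmu-miR-192, mmu-miR-126-3p, mmu-miR-101b and mmu-miR-23b are named without a sequence. Among them miR-122 held 31.0% of the signal and miR-720 13.4%, and neither enters the shares by seed. The capitals mark the seed. The 9 names with the seed GAGGUAG, the let-7 family, held 10.4% ± 0.81 (SD, n = 3 arrays) of the signal, the largest share of any seed among the matched and detected names:
mmu-let-7f: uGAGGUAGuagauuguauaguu
mmu-let-7a: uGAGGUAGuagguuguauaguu
mmu-let-7g: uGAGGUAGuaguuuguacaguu
mmu-let-7c: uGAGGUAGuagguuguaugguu
mmu-let-7b: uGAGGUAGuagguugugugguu
mmu-let-7d: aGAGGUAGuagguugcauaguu
mmu-let-7i: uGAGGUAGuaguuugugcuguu
mmu-let-7e: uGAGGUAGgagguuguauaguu
mmu-miR-98: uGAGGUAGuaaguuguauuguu

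Members of this family differed from let-7a at 1 to 4 of 22 bases, and let-7f, let-7c and let-7e differed from it at 1 base. Cross-binding of probes among them was not tested, so the family sum is better defined than the order of its members. Other abundant seeds, beside that of miR-451 given below, were those of miR-21 (chr11:86584120-86584141, minus strand), miR-22 (chr11:75463772-75463793, plus strand), the miR-29 family, the miR-15/16 family and the miR-148a, miR-26 and miR-30 groups:
mmu-miR-21: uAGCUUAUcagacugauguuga
mmu-miR-22: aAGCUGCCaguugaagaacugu
mmu-miR-29a: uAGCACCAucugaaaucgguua
mmu-miR-29b: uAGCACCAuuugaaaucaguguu
mmu-miR-29c: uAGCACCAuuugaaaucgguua
mmu-miR-15a: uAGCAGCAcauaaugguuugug
mmu-miR-16: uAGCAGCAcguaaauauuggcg
mmu-miR-148a: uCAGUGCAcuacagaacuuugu
mmu-miR-26b: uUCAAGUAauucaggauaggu
mmu-miR-30a: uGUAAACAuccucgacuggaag

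Of the 5 miRNAs that were at least 1.5-fold lower at 6 than at 4 weeks 4 came from a pair of short stretches of chromosome 11, and their sequences are shown for the account of the weeks. miR-144 (chr11:78073047-78073066, plus strand) and miR-451 (chr11:78073186-78073207, plus strand) start 139 bases apart, and both arms of the miR-142 hairpin (from chr11:87756867-87756887 to chr11:87756903-87756925, plus strand) start 36 bases apart. None of the 4 shares its seed with another of them:
mmu-miR-144: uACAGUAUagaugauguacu
mmu-miR-451: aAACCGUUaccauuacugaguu
mmu-miR-142-5p: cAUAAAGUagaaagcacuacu
mmu-miR-142-3p: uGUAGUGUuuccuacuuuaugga

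All 3 arrays shared a slide and a scan. At 4, 6 and 8 weeks the summed signal of the mouse miRNAs was 84437, 75407 and 97584. No spot was saturated. The standard error over the spots of a detected miRNA had a median of 1.89% to 2.02% of its signal, which measures the spread within an array only.

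miR-122, the miRNA for which hepatocytes are best known, was the brightest on every array, with signals at 4, 6 and 8 weeks of 25371, 24201 and 30018. It took 30.05%, 32.1% and 30.8% of the signal of these arrays, a mean of 31.0% ± 1.04 (SD, n = 3 arrays). The name in the next place was miR-720, an entry since attributed to a fragment of a transfer RNA, with 14.6%, 13.0% and 12.7%. After it came miR-21, expressed in many tissues and known for its increase in injured and growing ones, with 10.1%, 9.38% and 9.86%. These 3 names kept their order on every array and together held 54.7%, 54.5% and 53.3% of the signal.

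The following places went to miR-451, a miRNA of red blood cells that is cut by Argonaute 2 without Dicer, and to miR-22, which is expressed broadly. At 4, 6 and 8 weeks miR-451 held 6.91%, 3.18% and 4.77% of the signal, with ranks of 4, 6 and 4. Its SD of 1.87 percentage points was the widest of all 567 names. miR-22 held 4.07%, 5.15% and 4.38%. miR-192, which with miR-194 is made from shared transcripts and is abundant in liver, gut and kidney, held 3.29%, 3.76% and 3.42%.

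**Figure D1:**
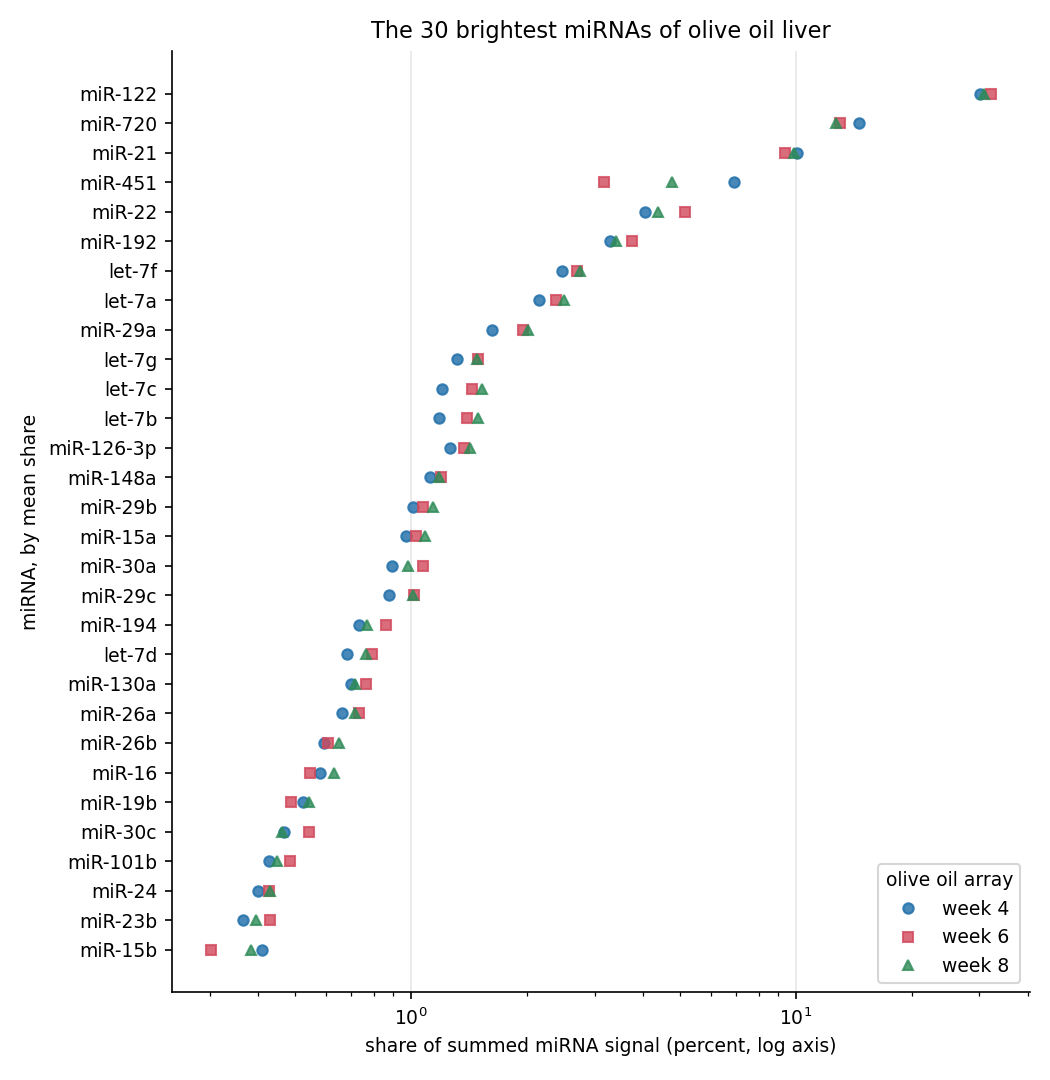
Share of the summed miRNA signal, in percent on a log axis, of the 30 miRNAs with the highest mean share, with 1 point for each olive oil array (4, 6 and 8 weeks). The points of most miRNAs lie close together, while those of miR-451 run from 3.18% at 6 weeks to 6.91% at 4 weeks and miR-15b is also lowest at 6 weeks.

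Signal was concentrated in a small set of names. On each array 3 names made up 50% of the summed signal, and 26 or 27 made up 90%. miR-720, the entry attributed to a transfer RNA fragment, was among the 3. It was kept in all sums and shares, and no sum without it was made. The 10 brightest names of an array held 76.5%, 75.1% and 74.7%, and the 30 brightest 91.7%, 91.8% and 91.4%, at 4, 6 and 8 weeks. Of the 115 miRNAs detected on every array, 13 had a mean signal of at least 1000, 38 lay between 100 and 1000, 61 between 10 and 100, and 3 under 10.

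**Figure D2:**
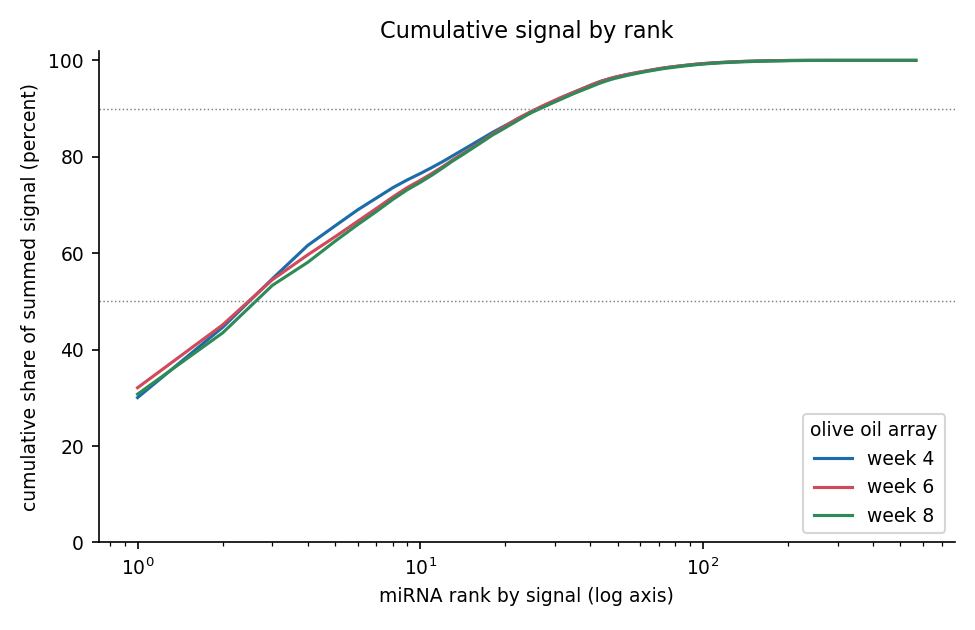
Cumulative share of the summed signal, in percent, against the rank of the miRNA by signal on a log axis, with 1 line for each olive oil array and dotted lines at 50% and 90%. The 3 lines nearly coincide and cross 50% at 3 names, miR-720 among them, and 90% at 26 or 27.

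The order of the brightest miRNAs was nearly fixed over the weeks. Of the 10 brightest on each array 9 were shared by all 3, and the only exchange was between let-7g, ranked 10 at 4 and 6 weeks, and let-7c, ranked 10 at 8 weeks. Of the 30 brightest 27 were shared, and of the 100 brightest 98. Among the 115 detected miRNAs the rank moved by at most 5 places for 82 and by at most 10 for 107. The largest move was 24 places, by miR-142-5p, which ranked 73, 97 and 75 in the order of the weeks. Across the 115 miRNAs, which are not independent replicates, Pearson's r of the log2 signals was 0.991 between 4 and 6 weeks, 0.996 between 4 and 8 weeks and 0.995 between 6 and 8 weeks.

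The miRNAs known from hepatocytes were all detected on every array. For this list and those below, the count stands beside 20.3% of all 567 names detected on every array. The hepatocyte list of 5 held 35.2%, 37.9% and 36.1% of the signal at 4, 6 and 8 weeks. Between weeks 0 of its 5 members differed by 1.5-fold, beside 8.7% of all detected names. With 5 names this count does not set the list apart. Besides miR-122 and miR-192 it holds miR-148a, with a signal of 946, 900 and 1153, miR-194, with 620, 647 and 750, and miR-802, with 12.7, 9.91 and 15.7. miR-802, which is known from liver and raised in obese mice, had rank 110 and a share of 0.0148%. On every array it read below a viral name on the same array, mghv-miR-M1-2 (15.6, 14.8 and 17.5).

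The let-7 family, known for holding back growth genes such as Hmga2 and Lin28, was detected in full. On every array 9 of 9 members were detected, beside 20.3% of all 567 names. The family's share of the signal was 9.46%, 10.6% and 11.0% at 4, 6 and 8 weeks. let-7f had signals of 2085, 2030 and 2689 and let-7a of 1816, 1791 and 2434, and the dimmest members were let-7e (58.8, 50.2 and 68.9) and miR-98 (40.7, 38.0 and 49.9). The share of the family was lowest at 4 weeks, with 1.17-fold between its highest and lowest. After scaling by the 75th percentile the 9 members differed by 1.05-fold to 1.16-fold between weeks. With other scalings the ratio reached 1.33 for let-7c, 1.33 for let-7b and 1.22 for let-7a.

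The miR-29 family, known for binding the messages of collagens, held 3.505%, 4.04% and 4.16% of the signal. Its 3 members were all among the 20 brightest, with signals at 4, 6 and 8 weeks of 1369, 1471 and 1960 for miR-29a, 852, 809 and 1112 for miR-29b, and 739, 766 and 986 for miR-29c. The miR-15/16 family, known for restraining the cell cycle, held 2.16%, 2.05% and 2.31% with 6 of 6 members detected. Among these, miR-15b (346, 227 and 375) had the widest ratio of highest to lowest scaled signal, 1.40, followed by miR-195 with 1.26, miR-497 with 1.15, miR-322 with 1.14, miR-16 with 1.097 and miR-15a with 1.03. After scaling, all but miR-15a were lowest at 6 weeks, beside 31 of all 115 detected miRNAs.

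The miR-30 family (5 of 5 detected) held 1.87%, 2.18% and 1.98% of the signal, led by miR-30a, and the group of miR-26 and miR-101 (4 of 4) held 1.96%, 2.09% and 2.09%. The miR-23, miR-24 and miR-27 group (5 of 5), made from paired clusters, held 1.49%, 1.65% and 1.60%. Of 6 miRNAs with known roles in lipid and glucose metabolism all were detected. They ranged from miR-107, which lies within a Pank gene (239, 274 and 329), to miR-33 (9.43, 8.34 and 10.2). miR-33, which lies within Srebf2 and is known for limiting cholesterol export, read below the viral name mghv-miR-M1-2 on every array. Its dimmer probe read −0.83, 0.02 and −0.54.

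The miR-17-92 cluster and its paralogs are known for promoting cell division. Of 11 members 8 were detected on every array, beside 20.3% of all 567 names. miR-19b (442, 367 and 529) and miR-92a (233, 231 and 298) led this group. miR-20a had 179, 157 and 211, miR-20b 60.6, 52.7 and 77.4, miR-93 53.8, 47.0 and 61.0, and miR-106b 135, 87.5 and 137. miR-17 and miR-106a, known as members of the same seed family, stood apart from these 4 with signals of 1.297, 0.067 and 0.34 and of −2.86, 0.25 and −0.15, and neither was detected on any array. Of the 10 names of the miR-17-92 cluster itself (mm9 chr14:115442915-115443718), 4 were detected on every array.

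For cells other than hepatocytes, the endothelial list had 3 of 4 members detected on every array, beside 20.3% of all 567 names. miR-126-3p, made from within the endothelial gene Egfl7, had rank 13 with signals of 1064, 1037 and 1390, while the other arm of its hairpin, miR-126-5p, had 23.96, 22.9 and 32.3. miR-221 was detected (25.3, 28.2 and 37.8) and its cluster partner miR-222 was not (−1.77, −0.54 and 1.09). The mesenchymal list, which holds miRNAs known from stellate cells, fibroblasts and smooth muscle, had 4 of 6 members detected and a share of 0.160%, 0.140% and 0.195%. miR-199b had signals of 76.9, 57.7 and 112, miR-199a-5p 17.1, 13.8 and 22.6, and miR-143 21.3, 18.2 and 23.8, while miR-145 was under 0 on every array and miR-214 (5.19, 5.61 and 11.9) was called detected at 8 weeks only.

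Markers of biliary and other epithelia were near the limit of detection. Of 8 such names 2 were detected on every array, miR-200a (10.2, 9.42 and 14.3) and miR-200b (9.39, 7.64 and 11.7), beside 20.3% of all 567 names. miR-96 (8.04, 5.09 and 10.7) was called detected at 8 weeks alone, and miR-429 (4.25, 3.96 and 5.75), the neighbour of miR-200a and miR-200b, was not detected on any. miR-200c and miR-182 were under 0 on every array.

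Names known from other organs were mostly undetected, beside the 77.1% of all 567 names that were detected on no array and the 20.3% detected on every array. The pancreas list (miR-375, miR-216a, miR-216b and miR-217) had all 4 members under 0 on every array. Of 9 miRNAs of pluripotent cells none was detected on any array. Of 6 names known from brain 5 were not detected, miR-124 and miR-9 being under 0 throughout, and miR-219 was detected on every array (15.7, 12.1 and 16.7). With so few names to a list, these counts are not set apart from those over all names.

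The muscle list showed a signal at 4 weeks only. miR-1, which is specific to striated muscle, read 22.1, −3.03 and −4.88 at 4, 6 and 8 weeks and was called detected at 4 weeks. miR-133b, from another muscle transcript, was likewise called detected at 4 weeks (11.6, 2.13 and 1.22), and miR-133a (8.41, 0.72 and 0.71) was highest there without being called. miR-206 was under 0 on every array. The signals rested on 1 of 2 probes: that of miR-1 read 34.0 ± 3.55 (SD, n = 10 spots) at 4 weeks where its other probe read −0.75 ± 2.75 (SD, n = 9 spots). For miR-133b the probes read 15.2 ± 1.94 (SD, n = 9 spots) and 2.198 ± 1.28 (SD, n = 10 spots). The lowest spots of both brighter probes at 4 weeks, 27.7 and 13.1, exceeded the highest spots of the same probes on the other arrays, 0.289 and 8.25, and what part muscle tissue had in this was not tested.

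The detection call was made for 118, 117 and 126 miRNAs at 4, 6 and 8 weeks. On every array 115 were detected, 20.3% of the 567 names, 1 was detected on 2 arrays, 14 on 1 array, and 437 on none. Of the 14 single detections 10 occurred at 8 weeks. Detected names held 99.6% of the signal on each array. The calls did not separate fully by signal: the dimmest detected names read 7.12, 6.26 and 7.80 at 4, 6 and 8 weeks, and the brightest undetected names 12.1, 9.87 and 12.0, miR-340-5p at 4 and 8 weeks and miR-702 at 6 weeks.

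**Figure D3:**
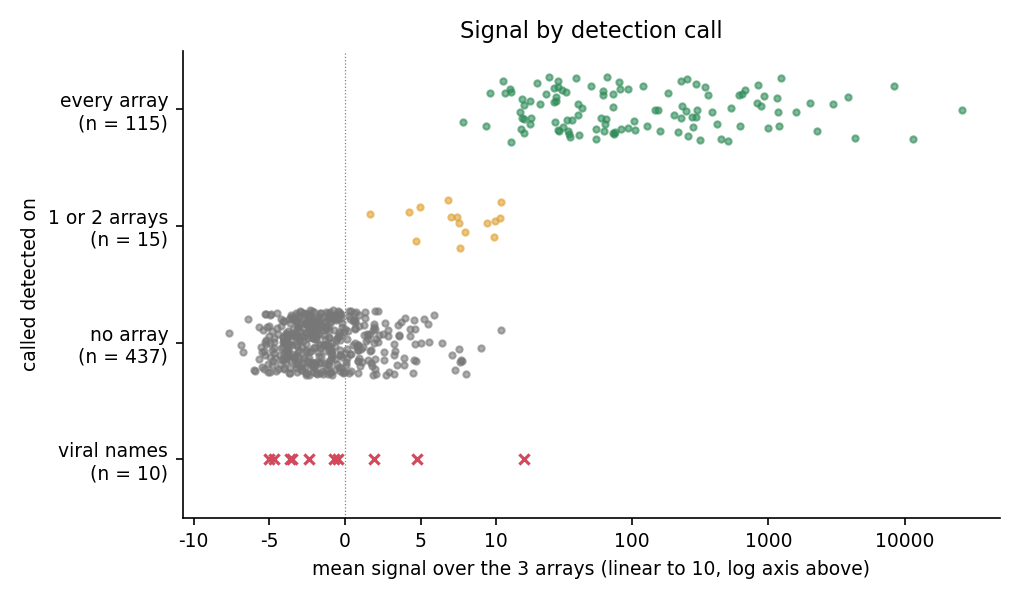
Mean signal over the 3 olive oil arrays, on an axis that is linear to 10 and logarithmic above, for 115 mouse miRNAs called detected on every array, 15 detected on 1 or 2 arrays, 437 detected on none and 10 viral names on the same arrays. Most undetected names scatter about 0, and 1 viral name lies at 15.99 among the dim detected miRNAs.

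Names detected on some arrays were all dim, and miR-1 at 4 weeks had the highest signal among them. miR-29c*, the only name detected on 2 arrays, read 8.88, 10.6 and 13.2 and was missed at 4 weeks. miR-137 (7.29, 9.59 and 12.8), miR-574-5p (8.76, 9.36 and 11.6), let-7b* (7.73, 9.38 and 11.1) and miR-702 (11.2, 9.87 and 11.1) were called at 8 weeks alone, although miR-702 read as high at 4 weeks. miR-542-5p was called at 4 weeks (7.12, −1.68 and −0.36) with a spot error of 98.3% of its signal.

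Of the 437 names never detected, 274 were under 0 on every array and 77 above 0 on every array, and 10 of these read at least 5 each time. miR-340-5p was one of them, and miR-290-3p (7.45, 7.90 and 7.54) another. A name that was not detected may lie below what these probes can read and was not shown to be absent.

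Star strands were detected less often than other names. The star marks the less used side of a hairpin, so this difference follows in large part from the naming. Of 114 names marked as star strands 7 (6.14%) were detected on every array, against 108 of 453 other names (23.8%). In 103 pairs with both strands on the array, both were detected in 6, the unstarred strand alone in 37, the star strand alone in none and neither in 60. The brightest star strands were miR-30a* (56.7, 56.9 and 67.9), miR-140* (38.8, 34.3 and 46.1) and miR-22* (30.4, 31.2 and 42.3). The other 4 were miR-30e* (22.9, 22.2 and 27.7), miR-378* (13.0, 15.1 and 17.9), miR-199b* (15.0, 10.2 and 20.9) and miR-30c-2* (8.09, 11.4 and 15.6).

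Genome clusters of miRNAs known from germ cells, placenta and embryo were nearly all undetected. Of all 567 names, 20.3% were detected on every array and 77.1% on none. In the imprinted Dlk1-Dio3 region (mm9 chr12:110801929-110981994) 1 of 70 names was detected, miR-494. None was detected in the Sfmbt2 cluster (24 names, mm9 chr2:10388586-10436549), in the miR-290-295 cluster of embryonic stem cells (14 names, mm9 chr7:3218647-3220838) or in the X-linked miR-743 and miR-883 cluster (21 names, mm9 chrX:64029935-64067184). These positions are those of the probes in the array's own annotation. In 16 runs of 5 or more names spaced by at most 10 kb, 22 of 199 names were detected, and outside them 92 of 361. The 199 hold the names of the clusters above, of which miR-494 alone was detected. The lower proportion in runs rests on these clusters. Among the other runs, detection ranged from 0 of 8 names (that of miR-302) to 3 of 5 (those of miR-23b and miR-25).

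The signal of a detected miRNA was nearly the same at 4, 6 and 8 weeks for most names. For this comparison each signal was scaled to the 75th percentile over all 567 names of its array, which was 5.11, 4.71 and 6.48 and lay below the dimmest detected name. The ratio of the highest to the lowest of the 3 scaled signals had a median of 1.16 over the 115 miRNAs, with quartiles of 1.105 and 1.251 and a range from 1.01 to 3.20. It was under 1.2 for 76 of 115 and at least 1.5 for 10 (8.7%), and at least 2 for 4 (3.48%). With 3 arrays these counts depend on each of them: 4 miRNAs reached 1.5-fold without the array of 4 weeks, 5 without that of 6 weeks and 7 without that of 8 weeks, a pair of arrays having the smaller range by construction. Under the other scalings the same comparison gave 10 or 11, and 7 miRNAs reached 1.5-fold under all 6: miR-144, miR-142-5p, miR-486, miR-451, miR-142-3p, miR-494 and miR-455. The count was 22 when the processed signals of the spots were summed and 3 (miR-144, miR-451 and miR-142-3p) with normexp background correction, which adds an offset of 50 to each spot.

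**Figure D4:**
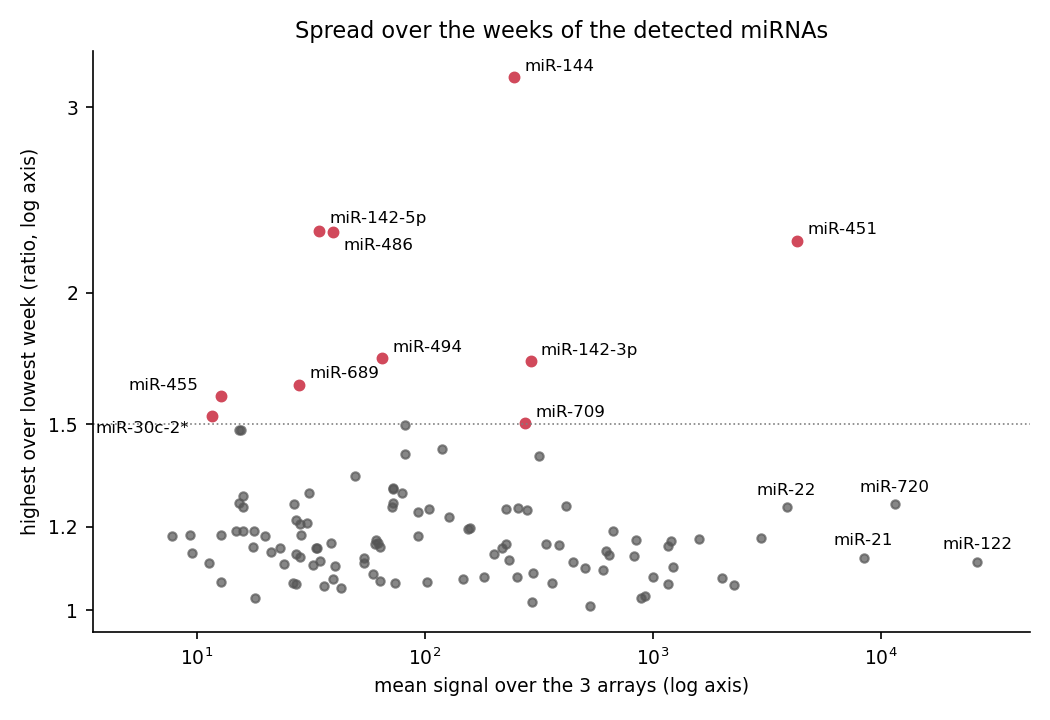
Ratio of the highest to the lowest scaled signal over 4, 6 and 8 weeks against the mean signal, both on log axes, for the 115 miRNAs detected on every olive oil array, with a dotted line at 1.5. The 10 names at or above the line are in red, and miR-144, miR-142-5p, miR-486 and miR-451 stand above 2 at very different signals.

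The 10 steadiest miRNAs had ratios from 1.01 to 1.06: miR-26b, miR-23a, miR-425, miR-15a, miR-29b, miR-98, miR-652, let-7f, miR-139-5p and miR-126-3p. miR-26b, for example, read 502, 459 and 633 before scaling and 98.3, 97.5 and 97.7 times the 75th percentile after it. Which names are steadiest depends on the scaling, and no miRNA stayed under 1.1 in all 6, whereas 40 of the 115 stayed under 1.2. The median of the 115 between 8 and 4 weeks moved from −0.04 (log2) with this scaling to 0.17 with the 75th percentile of the detected names, so a small difference of either sign between these weeks has no direction that holds. The 30 brightest names had a median ratio of 1.13 and the other 85 of 1.18.

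Among the lists with a member detected on every array, the summed share of the red blood cell list differed most over the weeks, with 2.21-fold between the highest and the lowest. miR-144, which is made with miR-451 from a transcript driven by GATA1, had signals of 375, 108 and 259 at 4, 6 and 8 weeks. Its scaled signal at 4 weeks was 3.20-fold that at 6 weeks. miR-451 had a signal of 5832, 2398 and 4652, and its scaled signal at 4 weeks was 2.24-fold that at 6 weeks. miR-486, which lies in the erythrocyte gene Ank1 and is also known from muscle, had 53.8, 21.7 and 43.3, or 2.29-fold.

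All 3 were highest at 4 weeks, intermediate at 8 weeks and lowest at 6 weeks, and their summed share was 7.41%, 5.08% and 3.35% in that order. The 2 probes of each gave closely similar ratios of 4 to 6 weeks, 3.24 and 3.17 for miR-144, 2.24 and 2.24 for miR-451, and 2.35 and 2.18 for miR-486. Over the 6 scalings the ratio of 4 to 6 weeks stayed between 3.01 and 3.32 for miR-144, 1.69 and 2.33 for miR-451, and 2.203 and 2.37 for miR-486. In bulk liver, fewer cells of a type and less RNA per cell cannot be told apart, and the part of blood cells in these values was not tested.

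**Figure D5:**
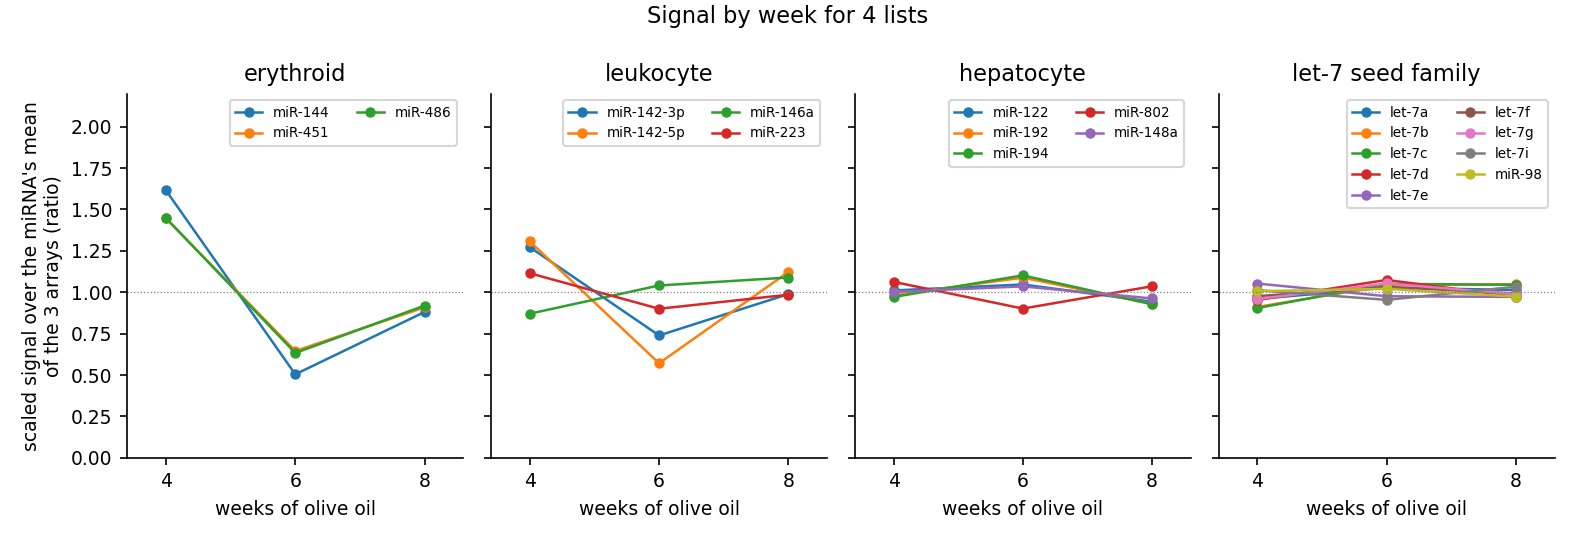
Scaled signal of each detected member of 4 lists at 4, 6 and 8 weeks, divided by the mean of that miRNA over the 3 arrays, with 1 line for each miRNA and 1 array at each week (the lines of miR-451 and miR-486 nearly coincide). The 3 erythroid miRNAs and both miR-142 arms are lowest at 6 weeks, while the hepatocyte and let-7 members stay close to 1.

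Both arms of the miR-142 hairpin, which is specific to blood cells, were also lowest at 6 weeks. miR-142-3p read 346, 185 and 342, and its scaled signal at 4 weeks was 1.72-fold that at 6 weeks. miR-142-5p read 41.4, 16.7 and 45.1, a ratio of scaled signals at 4 and 6 weeks of 2.29. The 2 probes gave 1.75 and 1.66 for miR-142-3p and 2.26 and 2.32 for miR-142-5p. Together with the 3 erythroid names these were the 5 of 115 (4.35%) that were at least 1.5-fold lower at 6 than at 4 weeks, and all 5 were so under each of the 6 scalings. Set against 8 weeks, the scaled signal at 6 weeks was at least 1.5-fold lower for miR-142-5p and miR-144, and the excess at 8 weeks was 1.45-fold for miR-486, 1.41-fold for miR-451 and 1.34-fold for miR-142-3p. In scaled signal, miR-144, miR-451 and miR-486 were also at least 1.5-fold lower at 8 than at 4 weeks. With miR-689 they were the 4 of 115 (3.48%) that were. Over the 6 scalings the ratio of 4 to 8 weeks stayed between 1.59 and 1.91 for miR-144. It ran from 1.36 to 1.64 for miR-486 and from 1, where the weeks were equal, to 1.66 for miR-451. Only for miR-144 among these 3 did the array of 4 weeks stand at least 1.5-fold above both others under each of the 6. With normexp the ratio of highest to lowest week was 1.55 for miR-142-3p, 1.24 for miR-142-5p and 1.27 for miR-486, and with the summed processed signals it was 1.38, 1.83 and 1.83.

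The leukocyte list, of which both miR-142 arms are part, had 4 of 6 members detected on every array, beside 20.3% of all 567 names. Its summed share of 0.648%, 0.450% and 0.611% was lowest at 6 weeks, with 1.44-fold between the highest and the lowest. After scaling, 3 of its 4 detected members were lowest there, beside 31 of all 115 detected miRNAs. Both arms of the miR-142 hairpin are among the 3. The third, miR-223, known from granulocytes and their precursors, read 98.0, 72.9 and 110, or 1.24-fold between its highest and lowest scaled signals. miR-146a, which is induced through NF-kB, read 58.5, 64.5 and 92.9 and was not lowest at 6 weeks. miR-150 of mature lymphocytes (2.42, −0.51 and 3.79) and miR-155 of activated immune cells (−0.14, 0.27 and 2.55) were not detected on any array.

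The other miRNAs that reached 1.5-fold followed no common course. miR-494 was highest at 6 weeks (60.003, 75.1 and 59.7, a ratio of 1.73), and its 2 probes moved alike. miR-455 (9.66, 14.2 and 14.3) and miR-30c-2* were at least 1.5-fold higher at 6 than at 4 weeks, the only ones of 115 (1.74%). Both were among the dimmest detected names, and each rested on 1 of 2 probes. The other probe read 0.28, 1.14 and 1.76 for miR-455 and 0.50, 2.04 and 2.95 for miR-30c-2*. Over the 6 scalings the ratio of 6 to 4 weeks fell as low as 1.47 for miR-30c-2*. miR-30c-2* was also the only one at least 1.5-fold higher at 8 than at 4 weeks (0.87%). miR-709 (265, 294 and 270, a ratio of 1.504) was lower at 8 than at 6 weeks, and miR-689 (32.9, 26.3 and 25.5, a ratio of 1.64) lower at 8 than at 4 weeks, and each was under 1.5 with some of the 6 scalings. miR-34a, a target of p53, read 60.3, 69.7 and 115, and its ratio of 1.499 was just under the limit, which it reached in 4 of the 6 scalings.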

How the data were processed

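Total RNA of liver was labelled with Cy3 and hybridized to Agilent mouse miRNA arrays. The authors deposited unscaled intensity values: per the headers, Feature Extraction 10.5.1.1 took off the background and gave a total signal for each miRNA. The study's methods name an older version of that software. The deposited log2 table equalled log2 of these signals, with signals under 1 set to 1, within 1.03e-06 over 1701 values. Shares used the summed signal of the 567 mouse miRNAs, with values under 0 set to 0. For comparison of weeks, signals were divided by the array's own 75th percentile, whereas the methods name that percentile over the measurements of a species. The divided signals were then set to at least 0.01. The methods set that floor before the division, an order run as an alternative. No test was run, since there was 1 array per week, and this number limits the precision.

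miRNAs were named by fixed rules: the 30 of highest share, members of 18 lists, the 10 highest and 10 lowest ratios between weeks, star strands detected on every array, and up to 10 detected on 1 or 2 arrays. The members and lists were chosen with earlier results of these data known. Others (miR-34a, miR-340-5p, miR-542-5p and miR-290-295 names) were chosen after their values were seen. Alternatives covered denominator, background, detection, scaling and leaving out an array. Software was Python 3.11.15, pandas 2.3.3, numpy 2.4.6, matplotlib 3.10.9, R 4.3.3 and limma 3.58.1, tested on simulated data. The CCL4 arrays were not used here.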

Additional observations from a re-analysis of the deposited data

Results flagged for a closer look

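The array also carries 10 miRNA names of a mouse herpesvirus, of which 9 were not detected on any olive oil array. The remaining one, mghv-miR-M1-2, was called detected on all 3, with signals of 15.6, 14.8 and 17.5 at 4, 6 and 8 weeks and a mean of 15.99. It was drawn to attention as a signal outside the mouse miRNAs, and its source was not tested. Its signal exceeded that of some mouse miRNAs detected on every array: 105 of the 115 lay above it at 4 weeks, 99 at 6 weeks and 104 at 8 weeks.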

How the results depend on the processing

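No paired analysis was possible because the 3 olive oil arrays are of different weeks and no test was run. The shares of miR-122, of the 10 brightest names and of the hepatocyte, let-7 and erythroid lists moved by less than 1 SD over the arrays with the processed spot signals. They also did so with the sum over detected miRNAs, the mean per spot and the value table, but these could hardly move them. Detected names held 99.6% of the signal, 565 of 567 names had 20 spots, and the value table holds the same signals. Without miR-122 in the denominator the 10 brightest held 66.4%, the let-7 list 15.0% and the erythroid list 7.62%. With normexp (offset 50), which adds a constant to every spot, miR-122 held 20.3%, the 10 brightest 49.8%, the hepatocyte list 24.1% and the let-7 list 7.33%. Leaving out 1 array gave 30.4% to 31.4% for miR-122, 4.21% to 6.25% for the erythroid list, and 115 or 116 detected miRNAs. Other detection rules gave 114 (over 3 times the software error), 98 (above the brightest viral name) and 94 (at least 50% of the spots well above background). The 10 miRNAs that reached 1.5-fold became 25 without scaling, 152 without the detection filter, which lets in names at background, 22 with processed spot signals and 3 with normexp. They became 4 with a fold of 2, 4 in the brighter 50% of the detected names, and 4 to 7 without 1 array. The cause of the change with processed spot signals was not tested. The ranges over 6 scalings were added after seeing the data. Names of dim signal are limited by the array's background.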
